A study of Magallana angulata with 3 samples.

Results

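A set of 158 genes stood at least 4-fold higher in the library DF than in the libraries DM and T of oyster adductor muscle, while DM and T differed from each other by less than 2-fold. The levels were RPKM, that is, reads divided by gene length and by the depth of sequencing, and the differences were taken on log2(RPKM + 1). Members were further required to have a mean over the 3 libraries of at least 10 and under 1000 RPKM, which 6046 of the 28027 listed genes had. The 158 members are 2.61% of these 6046 genes. Members were chosen by the RPKM values of all 3 libraries, so the levels below describe them and carry no test.

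The series compared diploid and triploid Fujian oysters (Magallana angulata). DF and DM are diploid libraries and T is a triploid library, with 1 library for each label, so no value below has a replicate check. Diploids came from crosses between diploid parents, and triploids from the same parents by chemically blocking the release of the second polar body. All animals lived for a year at equal temperature and food. The labels do not say what F and M stand for, which sex an animal had, or how many animals a library holds. In such bulk tissue, more cells of a type and more RNA per cell cannot be told apart.

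The adductor closes the shell of a bivalve. It holds a fast striated part and a slow smooth part, the catch muscle, which can keep the shell shut for long periods at little energy cost. Induced triploid oysters carry an extra set of chromosomes and usually form a reduced gonad. The deposited identifiers come without gene names, and 0 of the 28027, thus 0 of the 158 members, occurred in the RefSeq gene table for the species. The members are therefore given by identifier, without a function, and the labelled tissue could not be checked against muscle genes. Where near-identical gene copies exist, reads may have been split between them, and the members could not be screened for this.

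The recovered depth was 1805591 reads for DF, 2057805 for DM and 2137859 for T. On the deposited scale most genes were higher in DF: over the 6046 genes, the median log2 difference was 0.68 for DF minus DM and 0.29 for DF minus T. A scaling by the median of ratios brought these medians to -0.08 and 0.01. It divides every ratio of DF to DM below by 1.74 and every ratio of DF to T by 1.22, which the counting intervals do not cover. Of the 158 members, 75 still met the rule after that scaling, and all 158 stayed at least 2-fold above DM and T in DF, with a smallest log2 difference of 1.22.

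The members took 1.82% of the reads in DF (95% exact binomial interval 1.80 to 1.84), against 0.135% in DM (0.130 to 0.140) and 0.156% in T (0.150 to 0.161). These shares stand for 32916, 2775 and 3326 reads. The members' share of reads in DF was 13.5 times that in DM (95% counting interval 13.0 to 14.1) and 11.7 times that in T (11.3 to 12.1). These are ratios of summed reads, in which longer genes weigh more than in summed RPKM. After median-of-ratios scaling these ratios were 7.78 and 9.57, in the opposite order. The intervals cover counting error of reads only, and amplified copies are no separate molecules. Reads were unevenly spread over the members: the 10 with the most reads held 40.5% of the members' reads in DF. Without these 10, the members' share of reads in DF was 9.85 times that in DM and 8.88 times that in T.

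**Figure D1:**
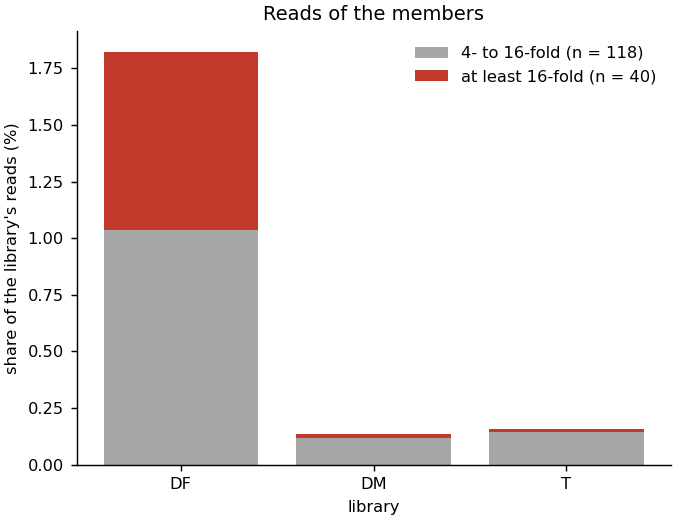
Share of each library's reads (%) taken by the 158 members, as bars for DF, DM and T, divided into the 40 members at least 16-fold higher in DF than in both others and the other 118. The whole bar reaches 1.82% in DF, 0.135% in DM and 0.156% in T.

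The size of the difference varied widely within the set. The median log2 difference was 3.18 for DF minus DM (quartiles 2.65 and 4.30) and 2.92 for DF minus T (2.38 and 4.21). Relative to the medians of all 6046 genes, these medians were higher by 2.49 and 2.63. By the smaller of a member's differences, 86 members were 4- to 8-fold higher, 32 were 8- to 16-fold, 25 were 16- to 32-fold and 15 were at least 32-fold higher in DF. The 15 members in the top class had a median level of 204 RPKM in DF, against 1.92 RPKM in DM and 2.01 RPKM in T. In the lowest class the medians were 77.0, 11.3 and 12.1 RPKM. Thus the low level in DM and T ranged from a few reads to a clearly measured level: 67 members had under 10 reads in both DM and T, and 78 had at least 10 reads in DM.

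**Figure D2:**
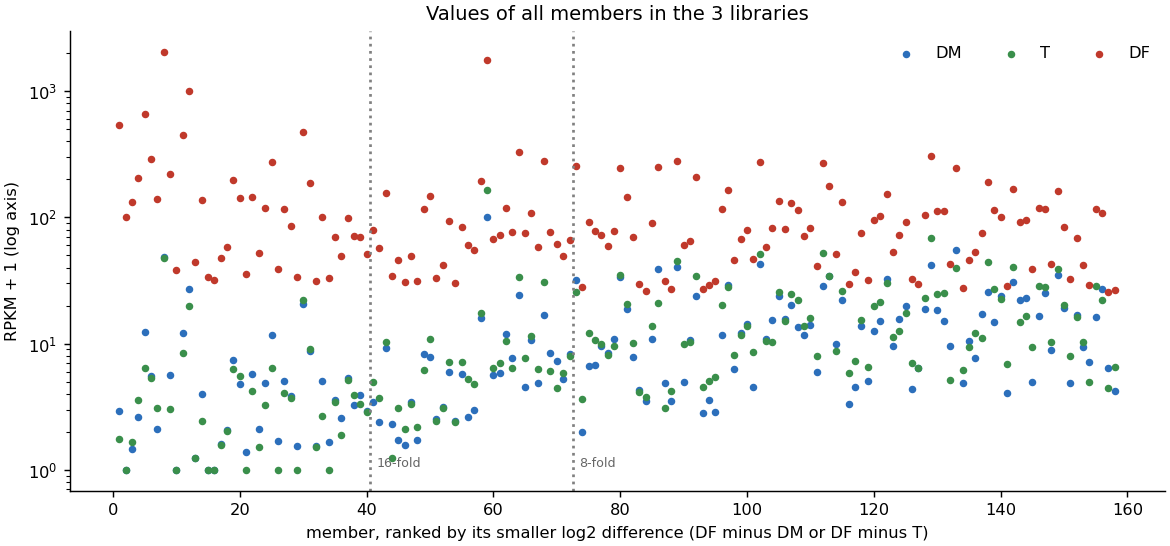
RPKM + 1 (log axis) of each of the 158 members in DF, DM and T, ranked by the smaller of its log2 differences, with dotted lines where this falls below 16-fold and 8-fold. DF lies above both others in every member, as the rule requires, and DM and T reach 1, which is 0 RPKM, in some members on the left.

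In DF the members ranged from 24.6 to 2029 RPKM with a median of 76.3. Their median was 6.56 RPKM in DM and 6.98 in T, against 33.2, 18.7 and 27.0 RPKM in DF, DM and T as medians over all 6046 genes. Among the 100 highest values of DF were 2 members, and the best rank of a member was 69 in DF, 848 in DM and 664 in T. These ranks follow in part from the rule. Its upper limit of 1000 RPKM on the mean kept the most abundant genes out, and its 4-fold limit holds members down in DM and T. A member at 0 in DM and T needs at least 30 RPKM in DF to reach the mean of 10, so weakly expressed genes could not enter. Members made up 2.33% of genes with a mean of 10 to 30 RPKM, 3.44% at 30 to 100, 2.22% at 100 to 300 and 1.15% at 300 to 1000 RPKM.

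The member with the highest level in DF was CGI_10017020. It had 2029 RPKM in DF (95% counting interval 1928 to 2135, 1506 reads), against 47.3 in DM (33.8 to 64.4, 40 reads) and 46.7 in T (33.5 to 63.3, 41 reads). DF thus stood at 42.9 times the level of DM (95% counting interval 31.4 to 60.3) and 43.5 times that of T (31.9 to 60.9). After median-of-ratios scaling the ratios were 24.7 and 35.5. The counting intervals of DM and T overlapped on both scales, and DF alone stood high.

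CGI_10013897, the member with the most reads, reached 1758 RPKM in DF from 2581 reads, against 99.2 RPKM in DM (166 reads) and 165 RPKM in T (286 reads). The ratio of DF to DM was 17.7 (95% counting interval 15.1 to 20.9) and that of DF to T was 10.7 (9.45 to 12.1). For this gene T lay above DM, and their counting intervals, 84.7 to 116 and 146 to 185 RPKM, did not overlap on the deposited scale. After median-of-ratios scaling they were 114 to 156 and 139 to 176 and overlapped. It is the most abundant member in DM and in T as well.

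CGI_10017043 reached 1002 RPKM in DF from 1541 reads, against 26.2 RPKM in DM (46 reads) and 18.7 RPKM in T (34 reads). Its folds were 38.2 against DM (95% counting interval 28.5 to 52.4) and 53.7 against T (38.2 to 77.8). CGI_10024546 reached 658 RPKM in DF from 1636 reads, against 11.3 RPKM in DM (32 reads) and 5.44 RPKM in T (16 reads). Its folds were 58.3 against DM (41.1 to 85.5) and 121 against T (74.3 to 212). In both genes DM lay between DF and T. The counting intervals of DM and T overlapped on the deposited scale and were apart after median-of-ratios scaling, which raises DM.

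Several of the largest differences belonged to members that were nearly silent in DM and T. Others did not, such as CGI_10024546 (32 and 16 reads in DM and T) and CGI_10017020 (40 and 41 reads). CGI_10023461 had the largest difference, with 537 RPKM in DF (95% counting interval 508 to 568, 1225 reads). Its levels were 1.92 RPKM in DM (0.625 to 4.49, 5 reads) and 0.741 RPKM in T (0.0897 to 2.68, 2 reads). Its log2 differences were 7.52 for DF minus DM and 8.27 for DF minus T, and the ratio to T was 725 with a counting interval of 200.3 to 5995. The few reads in DM and T make these ratios imprecise. The lower limit against DM was 119 on the deposited scale and 68.6 after median-of-ratios scaling.

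CGI_10021817 was the longest member, with a recovered length of 7236 nt. It had 132 RPKM in DF (95% counting interval 126 to 138, 1725 reads), against 0.470 in DM (0.189 to 0.969, 7 reads) and 0.646 in T (0.310 to 1.19, 10 reads). Owing to its length its level in DF rests on the second-highest number of reads in the set, and it was 281-fold higher than in DM (136 to 700) and 204-fold higher than in T (111 to 427). DM and T did not differ beyond counting error.

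CGI_10000035 reached 204 RPKM in DF from 334 reads, against 1.61 RPKM in DM (3 reads) and 2.58 RPKM in T (5 reads). The ratio to DM was 127 (95% counting interval 43.0 to 618) and that to T 79.1 (33.6 to 245). CGI_10024923 had 287 RPKM in DF (387 reads), against 4.55 in DM and 4.38 in T (7 reads each), with ratios of 63.0 (30.3 to 158) and 65.5 (31.5 to 164). In each of these genes DM and T overlapped and DF stood apart by well over 10-fold at the lower limit.

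**Figure D3:**
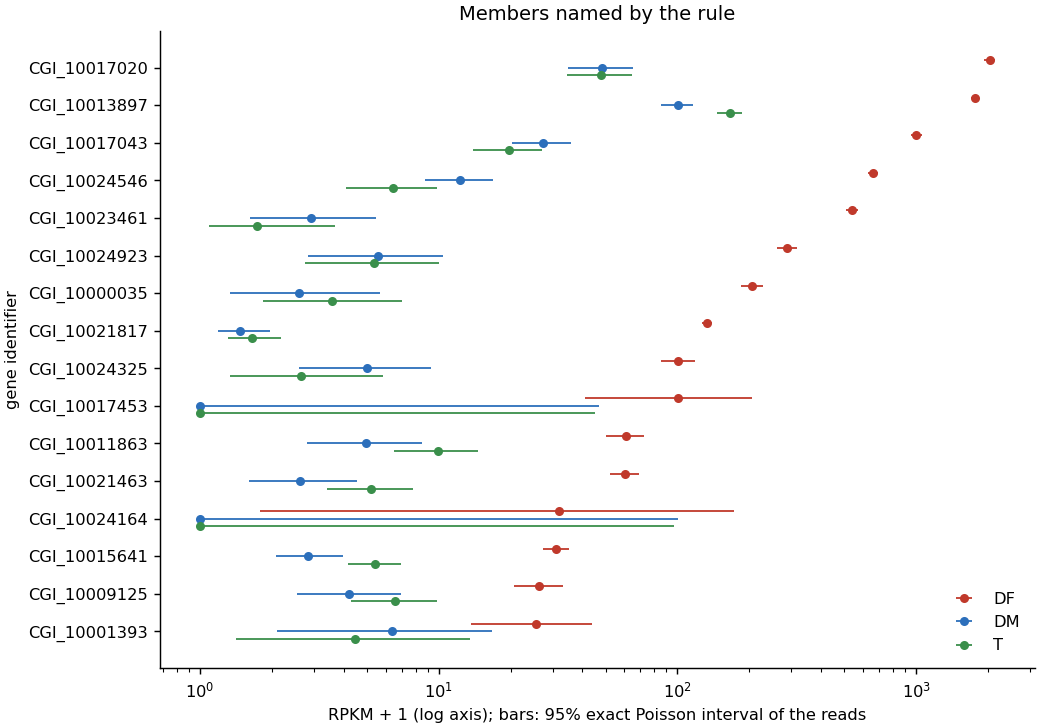
RPKM + 1 (log axis) of the 16 members named by the rule for named genes, in DF, DM and T, with 95% exact Poisson intervals of the recovered reads. The interval of DF is apart from those of both other libraries in 13 of the members shown. It overlaps both in CGI_10017453 and CGI_10024164, and that of DM but not of T in CGI_10001393.

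For 4 members DM and T held 0 reads. The floor used for 0 reads was 3 reads in the library. CGI_10005220 had 37.1 RPKM in DF from 33 reads and was at least 12.5-fold higher than in DM and at least 13.0-fold higher than in T against this floor. The lower limits of the 95% counting intervals, which also hold the error of the DF reads, were 9.64 and 10.01. CGI_10025873 had 32.5 RPKM in DF from 31 reads and was at least 11.8-fold and 12.2-fold higher against the floor, with lower limits of 9.02 and 9.37. These identifiers, named for their 0 reads after the values were seen, are the better measured of the group.

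The others of the 4 are the shortest members by recovered length. CGI_10017453 had 99.4 RPKM in DF from 7 reads over 39 nt, at least 2.66-fold higher than in DM and at least 2.76-fold higher than in T against the floor. Its lower limits by the counting interval were 1.64 and 1.71 on the deposited scale, so a difference under 2-fold remains possible at this depth. After median-of-ratios scaling these limits were 0.945 and 1.39, so equal levels in DF and DM remain possible as well. CGI_10024164 had 30.8 RPKM in DF from 1 read over 18 nt, which is under the floor, so no ratio is given. In genes with reads in DF alone, any common factor of reads and length goes unseen. Reads and lengths of the 4 genes are thus lower limits, and such very short lengths may stand for longer genes with more reads.

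At the edge of the set, CGI_10009125 was just inside the limit, with 25.3 RPKM in DF (69 reads), against 3.22 in DM (10 reads) and 5.58 in T (18 reads). CGI_10001393 was also just inside, with 24.6 RPKM in DF (12 reads), against 5.40 in DM (3 reads) and 3.46 in T (2 reads). Just outside were CGI_10018222, with 32.5, 4.63 and 7.38 RPKM in DF, DM and T, and CGI_10018577, with 66.7, 11.2 and 16.2 RPKM. These genes were picked as the nearest to the limit. Their smaller log2 differences were 2.00033 and 2.00095 inside it and 1.99966 and 1.97252 outside it, so the limit marks no gap in the values. On the deposited scale, the 95% counting interval of a member's read ratio lay above 1 against both DM and T in 157 of the 158 members. It lay above 2 in 150 and above 4 in 89. Members were chosen as at least 4-fold higher in DF from the same reads, so these counts follow largely from the rule. The exception at 1 is CGI_10024164, with its 1 read. After median-of-ratios scaling, the lower limit against DM was also under 1 for the named members CGI_10017453 (0.945) and CGI_10001393 (0.708).

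**Figure D4:**
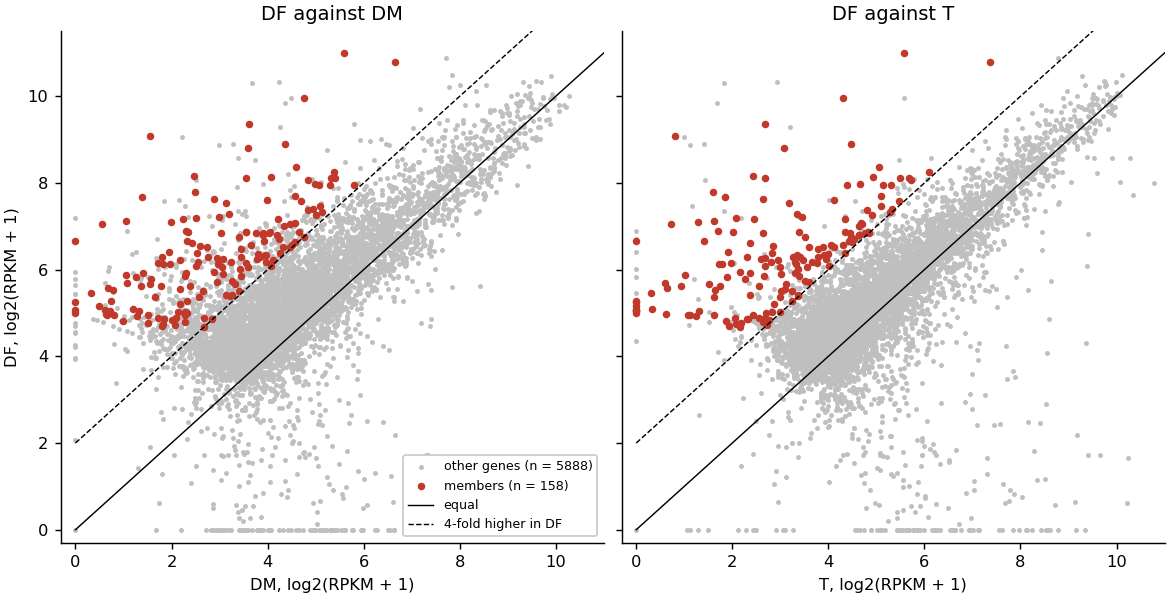
Log2(RPKM + 1) in DF (vertical axes) against DM and against T (horizontal axes) for the 6046 genes with a mean of 10 to 1000 RPKM, with the 158 members in red, a solid line at equal levels and a dashed line at 4-fold higher in DF. Grey points above the dashed line meet the limit against that library but not all parts of the rule.

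The limits of the rule can be read against the same limits set otherwise. DF was at least 4-fold above DM in 720 of the 6046 genes (11.9%) and at least 4-fold above T in 275 (4.55%). Both held in 234 genes (3.87%), and 158 of these had DM and T less than 2-fold apart. By the mirrored rules, DF was lower alone by 4-fold or more in 28 genes (0.463%). The library DM was higher alone in 5 genes (0.0827%) and lower alone in 98 (1.62%), and T was higher alone in 32 (0.529%) and lower alone in 12 (0.198%). On the deposited scale, DF high alone was thus the commonest of the 6 patterns. It remained so under the other scalings, but by less: after median-of-ratios scaling DF was high alone in 85 genes and low alone in 60. These comparisons share libraries, and no test of the difference between the counts can be had from 1 library per label.

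The rule bounds the difference between DM and T but leaves its direction free. DM was above T in 68 members, below it in 86 and equal, at 0 reads in both, in 4, so that DM was the higher in 43.0%. Among the other 4238 genes with DM and T under 2-fold apart it was the higher in 30.8%. On the deposited scale DM was above T in 29 of the 40 members at least 16-fold higher in DF, and in 39 of the other 118. After median-of-ratios scaling it was above T in 34 and 79 of these, so that both leaned to DM, as did most genes on that scale. Low reads enter here, since 13 of the 40 members had equal reads in DM and T, and equal reads place DM slightly above T because its total is lower. Among the 40, reads were more numerous in DM in 19 and in T in 8. Among the other 118 members these counts were 25 and 79. Among the 4238 other genes under 2-fold apart they were 1127 and 3020. With median-of-ratios scaling DM was above T in 113 of all 158 members. The same held in 68.0% of all 4396 genes with DM and T under 2-fold apart on the deposited scale. Which library was mostly higher thus depended on the scaling.

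The members farthest apart between DM and T show what the 2-fold bound allows. Besides CGI_10024546, the gene with DM most above T was CGI_10024325, with 99.8 RPKM in DF (153 reads), against 4.01 in DM (7 reads) and 1.65 in T (3 reads). In the other direction, CGI_10011863 reached 59.7 RPKM in DF from 119 reads, against 3.96 RPKM in DM (9 reads) and 8.90 RPKM in T (21 reads). CGI_10021463 reached 59.3 RPKM in DF from 191 reads, against 1.63 RPKM in DM (6 reads) and 4.19 RPKM in T (16 reads). The counting intervals of DM and T overlapped in each of these genes, while DF lay clear of both.

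Length was not part of the rule. The recovered length had a median of 831 nt in the members (quartiles 497 and 1123) and 837 nt in the 5888 other genes of the same range of means (480 and 1393). Members made up 2.50% of genes up to 500 nt, 3.11% of those from 500 to 1000 nt, 2.54% from 1000 to 2000 nt and 1.63% above 2000 nt. The typical member was thus as long as other genes, with somewhat fewer long ones: 11 of the 158 members (6.96%) exceeded 2000 nt, against 11.3% of the other genes. The second-longest, CGI_10015641 at 4467 nt, reached 30.1 RPKM in DF from 243 reads, against 1.85 RPKM in DM (17 reads) and 4.40 RPKM in T (42 reads).

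Some members had neighbouring identifiers. The files do not say what the order of the numbers stands for, and this comparison was chosen after the values were seen. In the order of the identifiers, 10 pairs of successive members were at most 5 places apart, with 19 members among them. No such count was made for other sets of genes of this size, so whether these pairs are many was not tested. The genes directly before and after the members, other than members, numbered 178 with a mean of at least 1 RPKM. Of these, 14 (7.87%) were at least 4-fold higher in DF than in both DM and T, against 2.56% of all 14244 genes with such a mean that are not members. Among the 14, 7 had under 30 reads in all and 4 had 0 reads in DM and T, so that DF alone carried them past the mean. With at least 30 reads in all required, 7 of 121 neighbours (5.79%) and 1.43% of 8932 other genes met the limit. That sum includes the reads of DF, so genes could still pass it through DF alone. CGI_10020518, for example, passed with 70, 0 and 2 reads in DF, DM and T. Neither share is thus independent of the level in DF. At 2-fold, without this requirement, the shares were 18.0% and 13.0%. From the second to the tenth place the share at 4-fold varied between 0% and 4.95% without a steady order, and that at 2-fold between 6.58% and 16.3%. Of the 14 neighbours, 11 had a mean under 10 RPKM and so could not be members. The shares rest on few genes and have no replicate check.

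One group of close members lies within 5 successive identifiers. CGI_10025871 had 69.9, 2.27 and 2.91 RPKM in DF, DM and T. CGI_10025872, not a member for its low mean, had 9.08, 0.150 and 0.290 RPKM. CGI_10025873 is the member with 32.5 RPKM in DF and 0 reads in the others. CGI_10025874 had 1 read in DF and none elsewhere, too few to place it, and CGI_10025875 had 34.6 RPKM in DF (153 reads), against 0.397 in DM (2 reads) and 0 reads in T. The identifier before the group, CGI_10025870, had 3 reads in DF and none elsewhere, and the one after it had no reads, so the edges of the group are not measured at this depth.

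A second stretch holds the member with the largest difference. Directly before CGI_10023461 in the order stands CGI_10023460, with 916 RPKM in DF (2103 reads), against 19.5 in DM (51 reads) and 2.21 in T (6 reads). Its level in DF exceeded that in DM 47.0-fold (95% counting interval 35.6 to 63.3) and that in T 415-fold (190.3 to 1132). It is not a member, because DM exceeded T by 2.68 on the log2 scale. CGI_10023458, a member, reached 190 RPKM in DF from 74 reads, against 24.7 RPKM in DM (11 reads) and 43.3 RPKM in T (20 reads). The gene between them, CGI_10023459, had 2, 2 and 7 reads in DF, DM and T and did not share the pattern.

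**Figure D5:**
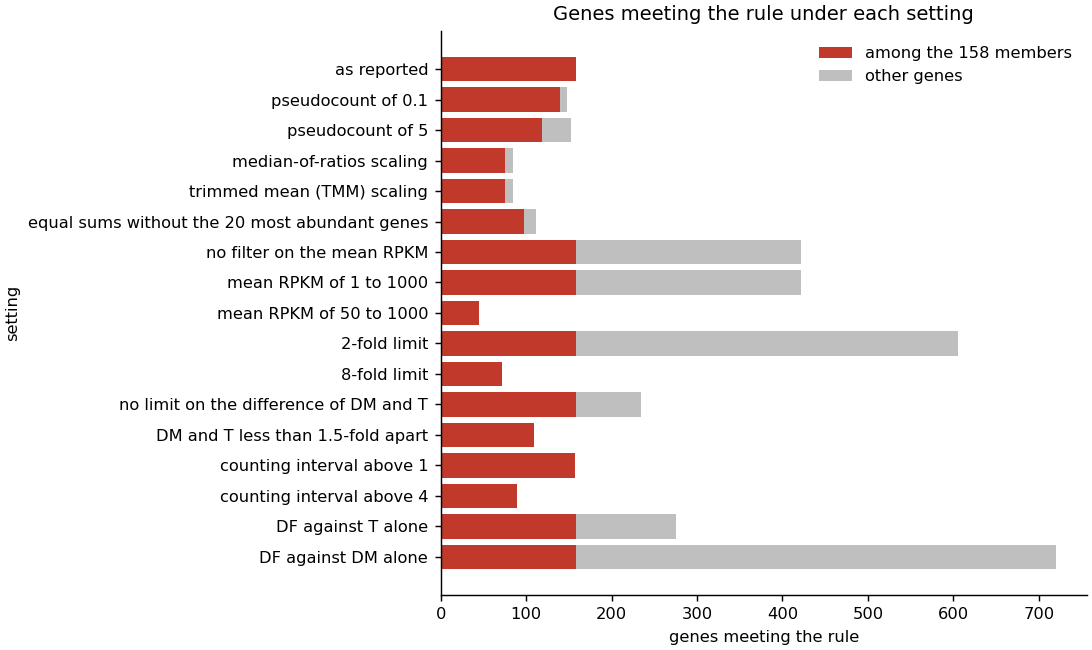
Number of genes that met the rule as reported and under each other setting (horizontal axis), with genes among the 158 members in red and other genes in grey. The count lies between 85 and 111 under the other scalings and reaches 720 when only DM is set against DF.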

How the data were processed

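Messenger RNA of adductor muscle was selected with oligo(dT), made into digital gene expression libraries and sequenced on an Illumina HiSeq 2000, per the labels' protocols. The submitters' processing notes name TopHat without a version. How reads were counted, on which build and with which annotation, is not given in the sources used. The authors deposited 1 RPKM value per gene and library. RPKM divides by a read total, so a few abundant genes in 1 library lower all others there.

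Read totals, whole reads and lengths were recovered from the 10 significant digits of the values, assuming lengths in multiples of 3 nt. All 19931 genes above 0 in any library gave whole reads (tolerance 1e-06 of a read, or 3e-09 of the value where larger), which sum to between 97.46% and 98.03% of the totals. Totals of 3611182 or 5416773 reads for DF, with the others in proportion, also gave whole reads. Their recovered reads filled a share of at most 0.837 or 0.828 of a total, and the totals filled best were taken. All reads and counting intervals rest on this choice. Reads are lower limits where reads and length share a factor. The recovery was tested on simulated data. For a length of 1 kb, a read in DF, DM or T equals 0.554, 0.486 or 0.468 RPKM.

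Differences are on log2(RPKM + 1), which understates low genes. Each label has 1 library, so no test across libraries was made. Intervals are 95% exact (Poisson for a level, Clopper-Pearson for shares and ratios of reads) and cover counting error only. Python 3.11.15, numpy 2.4.6, pandas 2.3.3 and scipy 1.17.1 were used. Members, settings and rules were chosen with earlier results of these data known. Named genes are the 6 members with the largest smaller difference, the 4 highest in DF, the 3 with most reads, the 2 longest and 2 shortest, the 2 with DM and T farthest apart each way, and 2 genes on each side of the limit. Genes named outside this rule were chosen after their values were seen.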

Additional observations from a re-analysis of the deposited data

How the results depend on the processing

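The number of genes meeting the rule, 158 as reported, depended on scaling and limits. It was 85 after median-of-ratios or trimmed mean scaling, 75 of them among the 158 in both cases. It was 422 with a mean of 1 to 1000 RPKM and also without a filter, 45 with a mean of 50 to 1000, 605 with a 2-fold and 72 with an 8-fold limit, 89 with the counting interval above 4, 275 for DF against T alone and 720 against DM alone. The looser conditions admit more genes and the stricter ones fewer by construction. Median-of-ratios scaling divides every ratio of DF to DM by 1.74 and to T by 1.22, and trimmed mean scaling by 1.73 and 1.23. Ratios just above the 4-fold limit thus fall below it. What sets the libraries apart in scale was not tested. The count stayed within 1.5 times with pseudocounts of 0.1 (148) and 5 (153), with equal sums without the 20 most abundant genes (111), and with the other limits on DM and T. The genes in the set changed even so. Of the 158 members, 139 still met the rule with the pseudocount of 0.1, 118 with that of 5 and 98 with equal sums. The median log2 difference of the members from DM, 3.18, became 2.65 with a pseudocount of 5, 2.44 and 2.45 after median-of-ratios and trimmed mean scaling, and 2.73 with equal sums. Against T it went from 2.92 to 2.50 with a pseudocount of 5 and to 2.63 and 2.62 with these scalings. DM was above T in 113 members after median-of-ratios and after trimmed mean scaling. The read shares became 0.159% in DM and 0.176% in T from summed RPKM. Without the 20 most abundant genes the shares were 2.82%, 0.283% and 0.267% in DF, DM and T. The 16 named members stayed higher in DF in all 160 recomputations and at least 4-fold higher in 147, with a smallest log2 difference of 1.28 for CGI_10001393 from DM. As all members were chosen for high levels in DF, this is no independent support. Depth limits members with few reads in DM and T, where 3 reads stand for the floor. No paired analysis was possible because there is a single library per label.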
